A study of Mus musculus with 6 samples.

Results

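Hepatokines are secreted proteins that the liver releases to act on other organs or on the liver itself. A set of 9 hepatokine genes, taken by name, was followed here: Fgf21, Gdf15, Angptl4, Angptl6, Lect2, Sepp1, Inhbe, Fst and Agt. All 9 were among the 23284 genes counted in the livers, and all 9 were among the 12559 genes with enough counts to be tested. The livers came from 8-week-old C57BL/6 mice that had been fasted overnight. In the Vehicle group, 3 mice received vehicle for 6 h, and in the FGF19 group 3 mice received FGF19 at 1 mg/kg for 6 h. FGF19 is the human form of mouse FGF15, a gut hormone of the late fed state that acts on hepatocytes. Both groups shared the strain and the fast, and the methods describe male mice, so every value below is a level in fasted liver, and a difference is that of fasted liver with FGF19 against fasted liver with vehicle. The methods give 3 mice per group, while the labels give only replicate numbers, and the p-values measure the spread between these samples.

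FGF21 and FGF19 are endocrine fibroblast growth factors that need the coreceptor β-Klotho (Klb) to signal. FGF21 is made by the fasted or stressed liver and is under the control of PPARα, CREB3L3 and the stress-response factor ATF4. GDF15 is a stress hormone that acts on the brainstem receptor GFRAL. ANGPTL4 inhibits lipoprotein lipase, ANGPTL6 is a circulating angiopoietin-like protein, and LECT2 binds the receptors MET and TIE1. Activin E, encoded by Inhbe, belongs to the TGF-β family, and follistatin, encoded by Fst, binds and blocks activins. Selenoprotein P, encoded by Sepp1, carries selenium to other tissues, and angiotensinogen, encoded by Agt, is the substrate of renin.

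The sequences upstream of Fgf21 and Inhbe are shown because both genes rose and both carry the same 8-base match to a C/EBP-ATF response element, the element through which ATF4 acts on amino acid and stress genes. The element was searched as TGATGNAA on both strands. The windows were RefSeq promoters of build GRCm38.p6, from 250 bases before to 50 bases after each annotated start, and the 250 bases before the start are printed 5′ to 3′ in the direction of the gene, with the match in capitals. Both genes lie on the minus strand, Fgf21 with its upstream bases at chr7:45615491-45615740 and Inhbe at chr10:127351849-127352098.
Fgf21: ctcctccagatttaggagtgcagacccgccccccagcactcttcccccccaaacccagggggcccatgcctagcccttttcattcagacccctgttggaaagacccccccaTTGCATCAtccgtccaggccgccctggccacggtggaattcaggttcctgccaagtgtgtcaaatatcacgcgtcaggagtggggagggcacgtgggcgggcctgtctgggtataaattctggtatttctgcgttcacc
Inhbe: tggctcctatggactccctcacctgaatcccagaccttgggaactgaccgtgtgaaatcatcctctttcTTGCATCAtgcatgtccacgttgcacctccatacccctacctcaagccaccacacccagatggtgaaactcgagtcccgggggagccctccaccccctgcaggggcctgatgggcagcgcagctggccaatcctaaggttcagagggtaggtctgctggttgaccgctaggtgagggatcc
The match, TTGCATCA in the direction of the gene, begins at position -139 in Fgf21 and at position -181 in Inhbe, where position -1 is the base before the start. These were 2 of the 7 hepatokine genes with a promoter entry, while 4.51% of all 27025 genes with an entry held the element. Among 21 genes of a list of integrated stress response genes with an entry, 8 held it. Of these, Asns and Nupr1 were called higher with FGF19, Vldlr was called lower, Atf3, Chac1, Herpud1 and Trib3 were not called, and Slc7a11 was too low to be tested. The other genes of this list that were called higher, Mthfd2 and Psat1 among them, were not among these 8. The other letters searched on both strands were TGACGTCA for a cyclic AMP response element, TTCNNNGAA for a STAT site, TTGCNNAA for a C/EBP site and TATAAA for a TATA box. They were found in 2.03%, 9.55%, 12.2% and 15.7% of all genes with an entry. TGATGNAA read on its reverse strand and TTGCNNAA can share the letters TTGC, but neither printed sequence held TTGCNNAA. Fgf21 held TATAAA at position -28, Agt held TATAAA at position -30 and a STAT match at position -172, and 1 of the 3 Sepp1 windows (entered under its later symbol Selenop) held TATAAA at position -10. The windows of Gdf15, Angptl6 and Lect2 held none of these letters, and no entry was found for Angptl4 and Fst. A match is a run of letters in a window and does not show a bound or active site.

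Fgf21, Inhbe and Fst were higher in the FGF19 group, Angptl6 was lower, and Gdf15, Angptl4, Lect2, Sepp1 and Agt did not pass an adjusted p of 0.05 in edgeR's quasi-likelihood test, adjusted over all genes tested by the Benjamini-Hochberg method. Thus 3 of the 9 genes were called higher and 1 lower, where 4.56% of all genes tested were called higher and 2.84% lower. The same 3 genes were the ones whose FGF19 values all lay above every Vehicle value, and Angptl6 the one whose FGF19 values all lay below. Over all genes tested, 14.5% separated in this way upward and 13.8% downward. The calls and separations counted in the gene lists below are to be read beside these shares. The median log2 fold change of the 9 genes was 0.28, beside -0.000763 over all genes tested. An exact permutation test over 3 against 3 samples cannot go below a p of 0.1, so the calls rest on the fit across all genes.

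The total counts were between 18994654 and 22920056 per library, and all values are CPM (counts scaled to the library total) after TMM scaling unless a level per length is named. By chi-square over genes, divided by the degrees of freedom, FGF19 replicate 3 stood apart from the other libraries of its group, at 31.5 and 41.8 beside 8.68 between FGF19 replicates 1 and 2, while the Vehicle pairs gave 16.6 to 29.8 and pairs between the groups 72.5 to 106. The values of Fgf21, Gdf15 and Fst without that library are given below. The detection floor was 3 counts, equal to 0.131 to 0.158 CPM by library, and covers counting error only. Summed hepatocyte markers lay between 106160 and 114280 CPM in the Vehicle libraries and between 97504 and 113070 CPM in the FGF19 libraries, and none of these 10 markers was called. The 7 neutrophil markers in the files summed to between 0.905 and 2.33 CPM with vehicle and between 4.26 and 5.65 CPM with FGF19, with 1 of 2 tested genes called higher. The 5 adipocyte markers summed to between 9.04 and 11.0 CPM and between 14.1 and 15.7 CPM, nearly all of it from Fabp4, which was called higher, with Lep at 0 and Adipoq at no more than 2 counts in any library. The 6 pancreatic acinar markers summed to between 0.191 and 0.546 CPM and between 0.634 and 1.10 CPM, with none called and Cel, Ctrb1 and Prss1 at 0. Summed levels overlapped between the groups for endothelial markers (319 to 339 and 320 to 347 CPM, with 1 of 9 called higher), stellate cell markers (214 to 290 and 206 to 258 CPM, none called) and cholangiocyte markers (72.0 to 89.4 and 55.7 to 86.0 CPM, none called). Of 9 Kupffer cell and monocyte markers, 2 were called higher, with sums between 190 and 237 CPM and between 198 and 232 CPM. The part of these markers in the hepatokine values was not tested. Because the RNA is from whole liver, fewer cells of a type and less RNA per cell cannot be told apart.

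**Figure D1:**
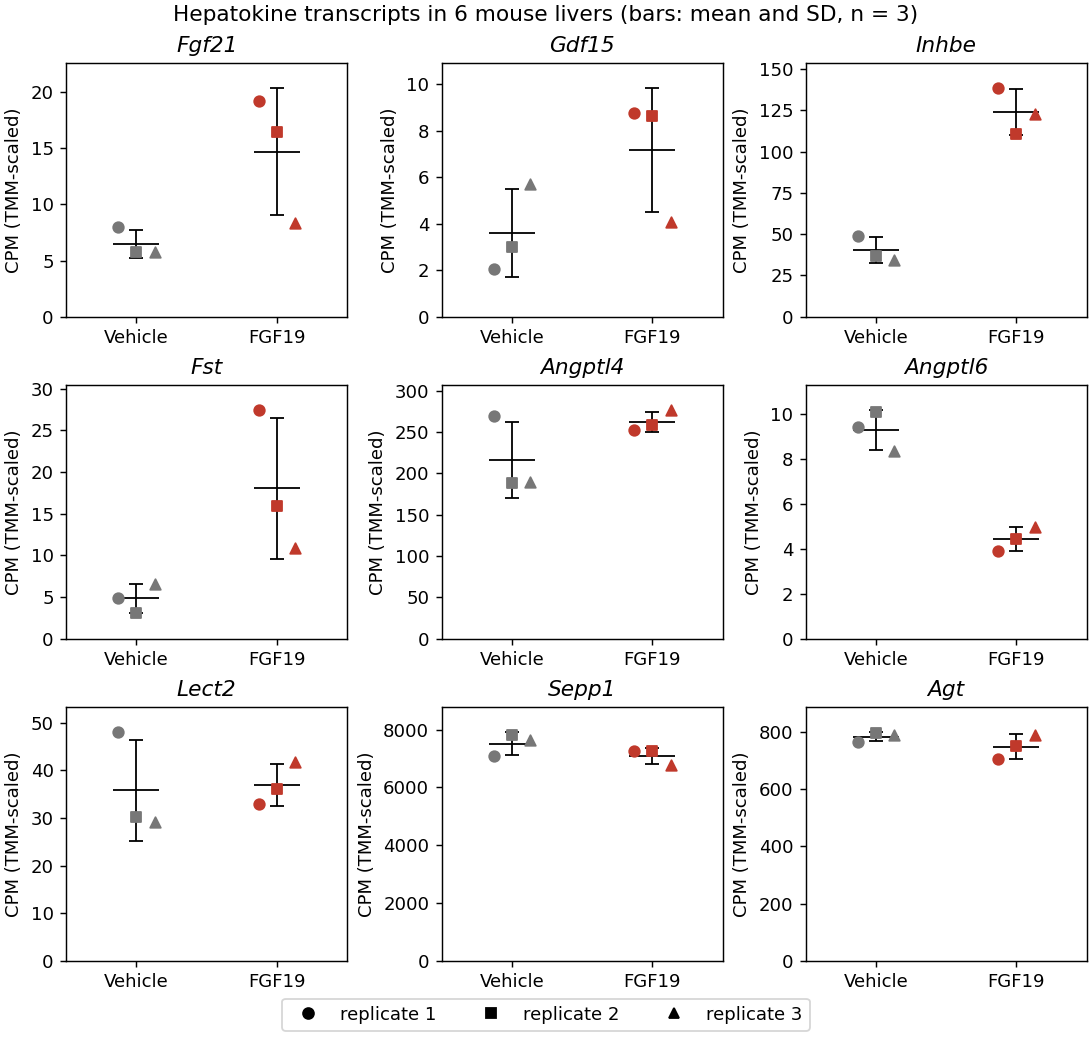
TMM-scaled CPM of the 9 hepatokine genes in each library, with Vehicle in grey and FGF19 in red, the symbol giving the replicate number, and bars for the mean and SD of 3 libraries. All FGF19 points of Fgf21, Inhbe and Fst lie above the Vehicle points, all FGF19 points of Angptl6 lie below them, and the groups of the other 5 genes overlap.

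Per exon length, the 9 transcripts covered a wide range in fasted liver. In TPM, a measure that divides counts by exon length before scaling, the Vehicle mean was 6263 ± 238 (SD, n = 3) for Sepp1, 787 ± 9.93 for Agt, 210 ± 47.5 for Angptl4, 75.5 ± 23.4 for Lect2, 34.8 ± 7.24 for Inhbe, 12.7 ± 2.68 for Fgf21, 11.0 ± 0.907 for Angptl6, 6.13 ± 3.27 for Gdf15 and 3.83 ± 1.42 for Fst. Sepp1 thus stood between rank 16 and rank 19 of all genes by this measure and took between 0.714% and 0.777% of the counts of a Vehicle library. Neighbours in this order whose libraries overlapped, and so did not differ beyond their spread, were Fgf21 and Angptl6, and Gdf15 and Fst. With FGF19, the order of the 3 most abundant was kept, with means of 5947 ± 622 for Sepp1, 754 ± 37.9 for Agt and 256 ± 8.81 for Angptl4. Inhbe, at 108 ± 13.2 TPM, then stood above Lect2, at 77.7 ± 5.83 TPM, with no overlap between the libraries of these 2 genes. Fgf21 had 29.2 ± 12.3, Fst 14.5 ± 7.19 and Gdf15 12.4 ± 5.18 TPM, and their libraries overlapped from each gene to the next. Angptl6, at 5.26 ± 0.455 TPM, was the lowest of the 9 with FGF19, with its libraries below those of Gdf15.

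**Figure D2:**
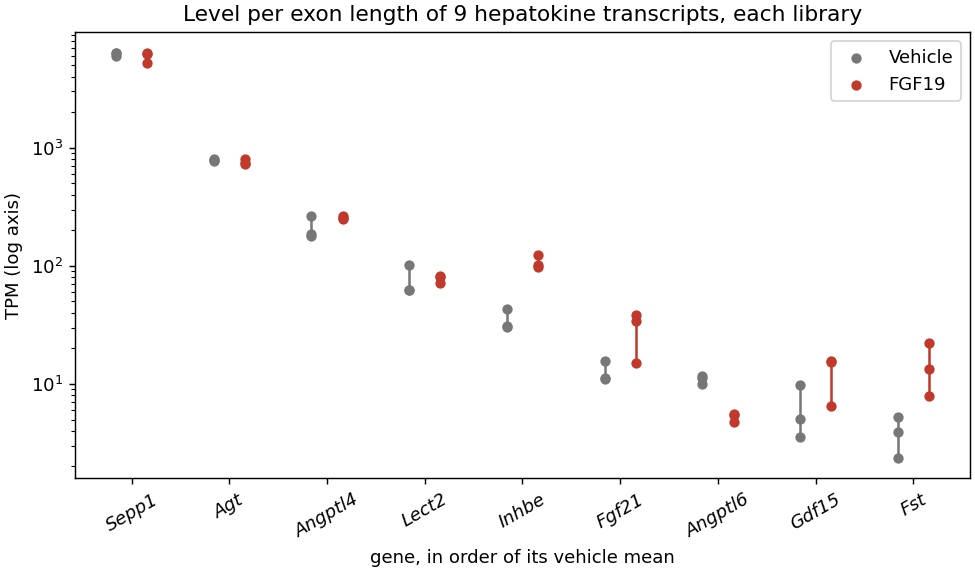
TPM (log axis) of the 9 hepatokine genes in each of the 3 Vehicle (grey) and 3 FGF19 (red) libraries, ordered by the Vehicle mean. The levels per length run from 6263 TPM for Sepp1 to 3.83 TPM for Fst in the Vehicle group, and Inhbe passes Lect2 in the FGF19 group.

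Inhbe, which encodes the βE subunit of activin E, a TGF-β family ligand made mainly by hepatocytes, had the clearest rise of the 9. Inhbe lies at chr10:126786458-126788828 of mm9 on the minus strand, with 2 exons, and 4554 bases from Inhbc. Its values were 49.1, 36.8 and 34.5 CPM in Vehicle replicates 1, 2 and 3, and 138, 111 and 123 CPM in FGF19 replicates 1, 2 and 3. The lowest FGF19 library was thus above the highest Vehicle library by more than the whole spread within either group. The means were 40.1 ± 7.87 and 124 ± 13.7 CPM (SD, n = 3), a 3.09-fold rise with a log2 fold change of 1.63 (SE 0.144, 95% interval 1.30 to 1.95) and an adjusted p of 0.000279 in edgeR's quasi-likelihood test. It ranked 35 of all genes tested by p. Leaving out any 1 library kept the log2 fold change between 1.53 and 1.80 and the adjusted p at or below 0.00306. Inhbe carried the C/EBP-ATF element letters shown above.

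Fst, which encodes the activin antagonist follistatin, rose from a much lower level. The gene lies at chr13:115242470-115248938 of mm9 on the minus strand, with 6 exons. The Vehicle libraries had 4.86, 3.07 and 6.55 CPM, and the FGF19 libraries had 27.4, 15.9 and 10.9 CPM. The FGF19 values spread widely, with replicate 1 the highest and replicate 3 the lowest, yet none reached down to the Vehicle values. The means were 4.83 ± 1.74 and 18.1 ± 8.47 CPM (SD, n = 3), a 3.73-fold rise with a log2 fold change of 1.90 (SE 0.351, 95% interval 1.11 to 2.68) and an adjusted p of 0.0127 in edgeR's quasi-likelihood test. The call was kept when any 1 library was left out, with adjusted p-values up to 0.0490 and log2 fold changes between 1.47 and 2.18. Without FGF19 replicate 3 the log2 fold change was 2.16, with an adjusted p of 0.00341.

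The other genes of the activin and follistatin pathway gave no call. Of 17 listed genes 14 were tested, and none passed in edgeR's quasi-likelihood test, in DESeq2, in edgeR's likelihood ratio test or in limma-voom. The median log2 fold change of these 14 genes was 0.01. At an unadjusted p under 0.05 there was 1 gene, Smad3, which encodes a signal transducer of activin receptors, with an adjusted p of 0.165 in edgeR's test and a log2 fold change of -0.37. It was chosen after its value was seen. Inhbc, the neighbour of Inhbe that encodes the βC subunit, had 49.1 ± 11.9 and 60.6 ± 3.37 CPM (SD, n = 3), with overlapping libraries, a log2 fold change of 0.30 and an adjusted p of 0.272 in edgeR's test. Without Vehicle replicate 1 its log2 fold change was 0.52 with an adjusted p of 0.0343, so that 1 library decided this value. The subunit genes Inhba and Inhbb were low in liver, with log2 fold changes of 0.40 and -0.52 and adjusted p-values of 0.589 and 0.532. The activin receptor genes Acvr2a and Acvr2b had log2 fold changes of -0.12 and 0.05 and adjusted p-values of 0.549 and 0.946. Fstl3, a relative of follistatin, had between 3 and 5 counts per library and was not tested. In TPM, Inhbc (46.1 ± 11.7) and Inhbe (34.8 ± 7.24) overlapped in the Vehicle libraries, while with FGF19 Inhbe (108 ± 13.2) lay above Inhbc (57.3 ± 6.88).

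Fgf21, the fasting and stress hormone of the liver, rose, and its call was lost when most of the single libraries were left out. It lies at chr7:52869260-52870860 of mm9 on the minus strand, with 3 exons. The Vehicle libraries had 7.96, 5.72 and 5.76 CPM, and the FGF19 libraries had 19.2, 16.5 and 8.38 CPM. FGF19 replicate 3 lay only just above Vehicle replicate 1, and the other FGF19 libraries were well above every Vehicle library. The means were 6.48 ± 1.28 and 14.7 ± 5.63 CPM (SD, n = 3), a 2.26-fold rise with a log2 fold change of 1.18 (SE 0.281, 95% interval 0.55 to 1.81) and an adjusted p of 0.0361 in edgeR's quasi-likelihood test. The adjusted p was 0.0587, 0.101 and 0.147 without Vehicle replicate 1, 2 or 3, and 0.124 and 0.114 without FGF19 replicate 1 or 2, with log2 fold changes between 0.93 and 1.35. Without FGF19 replicate 3 the log2 fold change was 1.46 with an adjusted p of 0.00133. The call was also lost with limma-voom, at an adjusted p of 0.0732, and without TMM scaling, at 0.0525.

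Of the receptor genes of FGF21 and FGF19 and the regulators of Fgf21, Nr0b2 and Nr1h4 passed edgeR's quasi-likelihood test. Klb, the coreceptor gene of both hormones, had 35.6 ± 5.91 and 26.4 ± 2.73 CPM (SD, n = 3), with no overlap between the groups, a log2 fold change of -0.43 and an adjusted p of 0.0905 in edgeR's quasi-likelihood test. Of 14 alternative fits, 2 called Klb: edgeR's likelihood ratio test, at an adjusted p of 0.0465, and the fit without Vehicle replicate 2, at 0.0329. The other 12 did not, with adjusted p-values up to 0.284, the highest without Vehicle replicate 3. Fgfr4, the main FGF receptor gene of hepatocytes, and Fgfr1, the receptor gene through which FGF21 acts on fat, had log2 fold changes of 0.11 and -0.02 and adjusted p-values of 0.583 and 0.952. Among the transcription factors that drive Fgf21, Ppara had a log2 fold change of 0.13 (adjusted p = 0.648), Creb3l3 of 0.30 (0.102) and Atf4 of 0.21 (0.251). Creb3l3 was higher in all FGF19 libraries than in any Vehicle library, and the Ppara and Atf4 groups overlapped. Of 12 tested genes of the list of FGF receptors and Fgf21 regulators, 1 rose and 1 fell, and the median was 0.12. Nr0b2, which encodes the corepressor SHP, rose from 22.2 ± 8.51 to 57.9 ± 5.69 CPM (adjusted p = 0.00823). Nr1h4, which encodes the bile acid receptor FXR, had a log2 fold change of -0.61 (adjusted p = 0.0185), and this call was lost without Vehicle replicate 1 or 3 or FGF19 replicate 1 or 2, with adjusted p-values up to 0.0864.

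Targets of the factors that control Fgf21 were mixed. Of 20 tested PPARα targets, 2 rose and 1 fell, and the median log2 fold change was -0.07. Plin2, a lipid droplet coat gene, rose from 436 ± 57.8 to 972 ± 114 CPM (log2 fold change 1.16, adjusted p = 0.000908 in edgeR's test). Pdk4, an inhibitor of pyruvate oxidation, had a log2 fold change of 0.78 (adjusted p = 0.0292), and Acaa1b, a peroxisomal thiolase gene, of -0.54 (0.0202). The Pdk4 call held only without FGF19 replicate 3 among the 6 fits that each left out 1 library, and the Acaa1b call was lost without Vehicle replicate 1 or 3 or FGF19 replicate 1 or 2, with adjusted p-values up to 0.106 and 0.0984. Of 18 tested targets of glucagon and glucocorticoids, the hormones of fasting, 1 rose and 1 fell, with a median of 0.10. Mt1, a metallothionein gene, had a log2 fold change of 1.69 (adjusted p = 0.0141), which was not called without Vehicle replicate 3 (0.0752). Sds, which encodes serine dehydratase, had a log2 fold change of -0.42 (adjusted p = 0.0328), and its call was lost without Vehicle replicate 1 or 3 or FGF19 replicate 1 or 2, with values up to 0.147. With DESeq2, 4 PPARα targets were called higher and 4 lower.

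The integrated stress response, in which ATF4 raises genes of amino acid supply, had 5 genes called higher and 2 lower of 20 tested, with a median log2 fold change of 0.17. The 4 with the largest rises were all at low levels. Mthfd2, of mitochondrial folate metabolism, rose from 0.531 ± 0.135 to 2.05 ± 0.215 CPM (log2 fold change 1.93, adjusted p = 0.00394 in edgeR's test), and it was called in every fit that left out 1 library. Nupr1, a stress-induced chromatin protein gene, had a log2 fold change of 1.58 (adjusted p = 0.0164), Psat1, of serine synthesis, of 1.49 (0.0270), and Asns, of asparagine synthesis, of 0.95 (0.0286). Nupr1 was not called without Vehicle replicate 1 or 3, Asns was not called without any 1 Vehicle library or FGF19 replicate 2, and Psat1 was called only without FGF19 replicate 3, with adjusted p-values up to 0.0752, 0.0991 and 0.106. The 2 genes called lower were Vldlr, a lipoprotein receptor gene (-0.99, adjusted p = 0.0141), and Cth, of cysteine synthesis (-0.60, adjusted p = 0.0293). Vldlr was not called without Vehicle replicate 3 or FGF19 replicate 2, and Cth without Vehicle replicate 1 or 3 or FGF19 replicate 2, with values up to 0.0742 and 0.125. Ddit3, which encodes the stress factor CHOP, had a log2 fold change of 0.30 and an adjusted p of 0.231. The count of genes called higher fell to 1 when Vehicle replicate 1 or 3 was left out, to 2 when FGF19 replicate 2 was, and to 3 when Vehicle replicate 2 or FGF19 replicate 1 was. It was 2 where each library had to reach 1 CPM, since Mthfd2, Nupr1 and Psat1 were then not tested.

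Gdf15, the other stress hormone of the set, differed by less than its spread allowed to call. It lies at chr8:73153293-73155534 of mm9 on the minus strand, with 2 exons. The Vehicle libraries had 2.05, 3.02 and 5.71 CPM, and the FGF19 libraries had 8.75, 8.64 and 4.07 CPM. FGF19 replicates 1 and 2 lay above all Vehicle libraries, while FGF19 replicate 3 fell below Vehicle replicate 3. The means were 3.59 ± 1.90 and 7.15 ± 2.67 CPM (SD, n = 3), and the log2 fold change was 0.99 (SE 0.380, 95% interval 0.14 to 1.85) with an adjusted p of 0.154 in edgeR's quasi-likelihood test. Without FGF19 replicate 3 the log2 fold change was 1.28 with an adjusted p of 0.0374, and without Vehicle replicate 3 it was 1.50 with an adjusted p of 0.0772. Leaving out any other library lowered it. It was 0.71 and 0.89 without Vehicle replicate 1 or 2, with adjusted p-values of 0.342 and 0.312. It was 0.82 and 0.84 without FGF19 replicate 1 or 2, with adjusted p-values of 0.364 and 0.370. The receptor genes Gfral and Ret, which act in the brainstem, had 0 counts in every library. FGF19 replicate 3 was the lowest of the 3 FGF19 libraries for Fgf21, Gdf15 and Fst, while for Inhbe it lay between the other 2.

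Angptl6 was the 1 hepatokine gene of the 9 that fell. It lies at chr9:20678253-20684154 of mm9 on the minus strand, with 6 exons. Vehicle libraries held 9.44, 10.1 and 8.34 CPM, and the FGF19 libraries had 3.91, 4.46 and 4.98 CPM. The values were tight within each group, and the highest FGF19 library was well below the lowest Vehicle library. The means were 9.28 ± 0.874 and 4.45 ± 0.536 CPM (SD, n = 3), with the Vehicle level 2.08-fold that of FGF19, a log2 fold change of -1.06 (SE 0.151, 95% interval -1.40 to -0.72) and an adjusted p of 0.00351 in edgeR's quasi-likelihood test. Leaving out any 1 library kept the adjusted p at or below 0.0213. Of its 1564 exon bases, 264 (16.9%) are shared with A230050P20Rik, a gene on the opposite strand with between 741 and 1387 counts per library, and reads were counted without regard to strand, so that reads from these 2 genes cannot be told apart where their exons meet. A230050P20Rik itself had 44.2 ± 9.91 and 47.7 ± 13.2 CPM, with overlapping groups, a log2 fold change of 0.11 and an adjusted p of 0.801.

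Angptl4, which encodes a fasting-induced inhibitor of lipoprotein lipase and is itself a PPARα target, was the most abundant of its family among the 9. It lies at chr17:33911845-33918520 of mm9 on the minus strand, with 7 exons. Values with vehicle were 269, 189 and 190 CPM, and the FGF19 libraries had 253, 259 and 276 CPM. Vehicle replicate 1 lay within the FGF19 range, and the other Vehicle libraries lay below it. The means were 216 ± 45.8 and 263 ± 12.0 CPM (SD, n = 3), with a log2 fold change of 0.28 (SE 0.137, 95% interval -0.02 to 0.59) and an adjusted p of 0.257 in edgeR's quasi-likelihood test. Without Vehicle replicate 1 the log2 fold change was 0.47 with an adjusted p of 0.0318, so that 1 library decided the call.

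The wider angiopoietin-like family and the lipoprotein lipase pathway held changes in both directions. Of 14 tested genes, 1 rose and 2 fell, with a median log2 fold change of -0.14. Angptl2, which encodes a secreted angiopoietin-like protein, fell from 13.2 ± 1.37 to 7.80 ± 0.537 CPM (SD, n = 3), with a log2 fold change of -0.76 and an adjusted p of 0.00878 in edgeR's test, and without Vehicle replicate 3 its adjusted p was 0.0505. Gm6484, the symbol in these files for Angptl8, which encodes a regulator of lipoprotein lipase, rose from 16.3 ± 4.36 to 32.1 ± 7.38 CPM (log2 fold change 0.98, adjusted p = 0.0254). That rise was not called without Vehicle replicate 1 or 3 or FGF19 replicate 1, with adjusted p-values up to 0.105. Lpl, the lipase gene itself, had a log2 fold change of 0.18 (adjusted p = 0.531), and Gpihbp1, whose product anchors the lipase to capillaries, of -0.36 (0.0968, and 0.0256 without FGF19 replicate 3). Angptl1 and Angptl7 had no more than 4 and 11 counts in any library and were not tested.

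**Figure D3:**
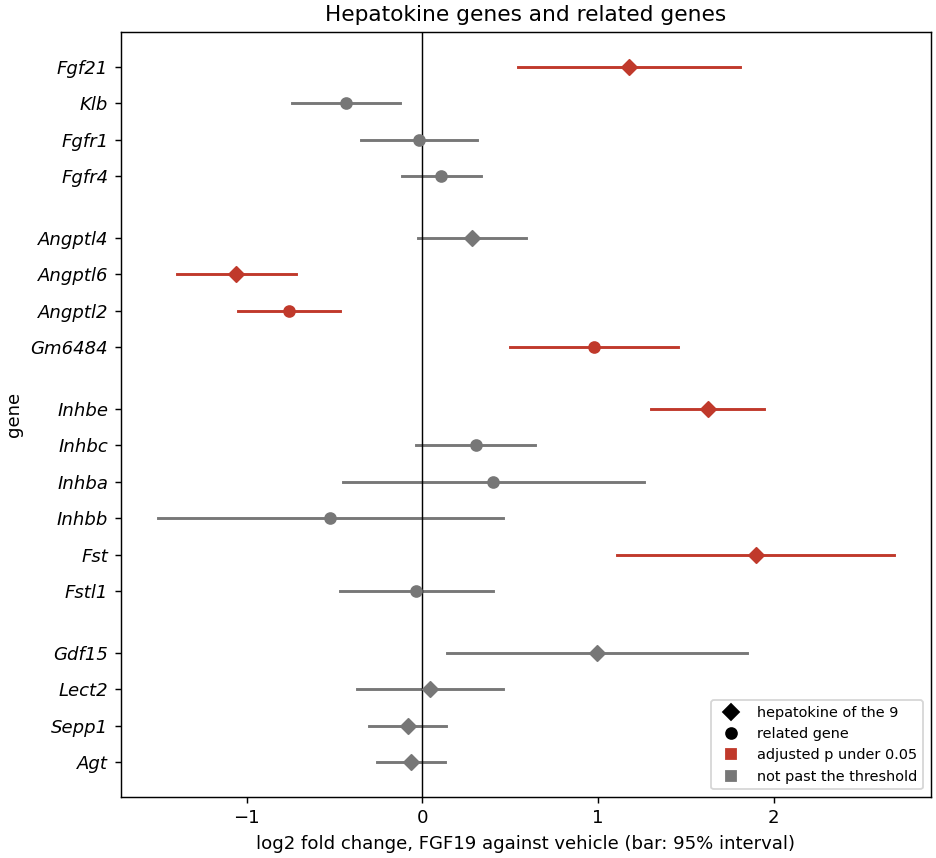
Log2 fold change of FGF19 against Vehicle for the 9 hepatokine genes (diamonds) and related genes (circles), with 95% intervals and 3 libraries per group, in red where the adjusted p was under 0.05. Fst, Inhbe and Fgf21 lie to the right at 1.90, 1.63 and 1.18, and Angptl6 and Angptl2 lie to the left at -1.06 and -0.76.

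Lect2, Sepp1 and Agt had the log2 fold changes closest to 0 of the 9 genes, with intervals that include 0. Lect2, which encodes a leukocyte chemotactic factor, lies at chr13:56643821-56649899 of mm9 on the minus strand, with 4 exons. In CPM, the Vehicle libraries held 48.0, 30.2 and 29.2 and the FGF19 libraries 32.9, 36.1 and 41.8. Vehicle replicate 1 was the highest of all 6 and the other Vehicle libraries were the lowest, so that the FGF19 range lay inside the Vehicle range. The log2 fold change was 0.04 (SE 0.185, 95% interval -0.37 to 0.46) with an adjusted p of 0.916 in edgeR's quasi-likelihood test, and its sign turned with the library left out, from -0.08 without Vehicle replicate 3 to 0.32 without Vehicle replicate 1. Its receptor genes Met and Tie1 had log2 fold changes of -0.03 and -0.19 and adjusted p-values of 0.929 and 0.453. Vehicle replicate 1 was also the highest Vehicle library for Fgf21, Inhbe and Angptl4.

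Sepp1 lies at chr15:3220767-3230508 of mm9 on the plus strand, with 7 exons. It had 7082, 7825 and 7640 CPM in the Vehicle libraries and 7260, 7255 and 6761 CPM in the FGF19 libraries, with overlapping groups. The means were 7516 ± 387 and 7092 ± 287 CPM (SD, n = 3), and the log2 fold change was -0.08 (SE 0.0976, 95% interval -0.30 to 0.14) with an adjusted p of 0.670 in edgeR's test. Of the other selenoprotein genes, 15 were tested and 1 was called, Selk, of the endoplasmic reticulum, which rose from 35.3 ± 2.79 to 53.0 ± 3.88 CPM (log2 fold change 0.59, adjusted p = 0.00800, and 0.0511 without Vehicle replicate 3). The median of these 15 was -0.08. Of 9 genes of selenium handling, 7 were tested and none was called in edgeR's test, in DESeq2 or in limma-voom, with 0 at an unadjusted p under 0.05 and a median of -0.05. Lrp8, a receptor gene for selenoprotein P, had no more than 3 counts in a Vehicle library and no more than 9 in an FGF19 library and was not tested.

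Agt lies at chr8:127080487-127093607 of mm9 on the minus strand, with 5 exons. Agt values in the Vehicle libraries were 765, 796 and 788 CPM and in the FGF19 libraries 705, 750 and 791 CPM, with overlapping groups. The means were 783 ± 15.9 and 749 ± 42.9 CPM (SD, n = 3), and the log2 fold change was -0.06 (SE 0.0857, 95% interval -0.26 to 0.13) with an adjusted p of 0.712 in edgeR's test. The rest of the renin-angiotensin system gave no call in edgeR's test, in DESeq2 or in limma-voom among 10 genes tested of 16 listed, with 0 at an unadjusted p under 0.05 and a median log2 fold change of 0.02. Ren1, the renin gene of the kidney, had 0 counts in every library. Agtr1a, the main angiotensin receptor gene of hepatocytes, had a log2 fold change of -0.13 (adjusted p = 0.408), and Ace, which encodes the converting enzyme, of 0.17 (0.708).

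Among other secreted liver factors, 3 rose and 2 fell of 22 tested, with a median of -0.06. Fgl1, which encodes a fibrinogen-like hepatokine, rose from 319 ± 34.2 to 753 ± 93.4 CPM (log2 fold change 1.24, adjusted p = 0.000465 in edgeR's test). Enho, which encodes adropin, had a log2 fold change of 0.82 (adjusted p = 0.0297), and the call was lost without Vehicle replicate 1 or 3 or FGF19 replicate 1, with values up to 0.130. Igfals, which encodes the acid-labile subunit of the circulating IGF complex, fell from 84.3 ± 21.8 to 37.6 ± 5.13 CPM (log2 fold change -1.17, adjusted p = 0.00506). Leaving out FGF19 replicate 3 raised the number called lower to 5 here and to 5 in the angiopoietin-like and lipase list, and the number called higher to 4 among fasting hormone targets, 3 among FGF receptors and Fgf21 regulators and 1 in the renin-angiotensin list. Gm6484, given above, was also among those that rose. Ahsg, which encodes fetuin A, had a log2 fold change of 0.06 and an adjusted p of 0.810. Of all 150 tested genes of the lists described here beside the 9 hepatokines, 13 were called higher and 8 lower. Over all genes tested, 4.56% were called higher and 2.84% lower. Of the 21 called list genes, 6 were called in every fit that left out 1 library, among them Mthfd2, Plin2, Fgl1, Igfals and Nr0b2. The share of all called genes kept in every such fit was not counted.

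**Figure D4:**
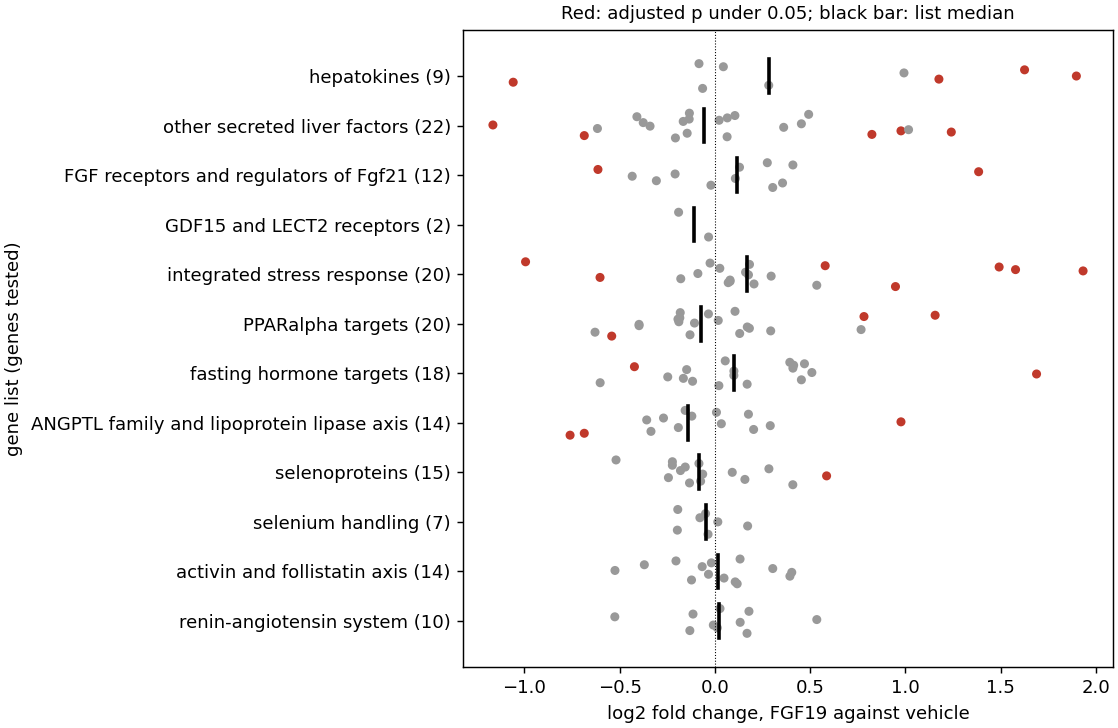
Log2 fold change of each tested gene, FGF19 against Vehicle, by list, with the number of tested genes in parentheses, genes at an adjusted p under 0.05 in red and the list median as a black bar. The list medians lie between -0.14 and 0.28, and the hepatokines reach from -1.06 to 1.90.

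For each of the 4 called hepatokine genes, the genes with the most similar profile over the 6 libraries were found by the root mean square difference of their centred log2 CPM values. This likeness is a description over the 6 libraries of both groups, so it includes the difference between the groups. The compared genes were measured in the same libraries, which differ in depth and treatment. Nearest to Fgf21 were Slc26a2 and Zfp9, at differences of 0.0708 and 0.112. Nearest to Inhbe were Mycn, Itih4 and Mthfd2, at 0.173, 0.191 and 0.195. Nearest to Fst were Adra2a, 4931408D14Rik and Eml6, at 0.199, 0.263 and 0.311. Nearest to Angptl6 were Car14, Wnt2b and Afmid, at 0.128, 0.137 and 0.146. Itih4, an acute phase plasma protein gene, had a log2 fold change of 1.61 (adjusted p = 1.52e-05 in edgeR's test), beside 1.63 for Inhbe. Car14, a carbonic anhydrase gene, had -0.98 (adjusted p = 0.00259), beside -1.06 for Angptl6. These genes were chosen for their likeness over the same libraries, so a similar fold change follows from the choice.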

How the data were processed

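Raw RNA-seq read counts of livers from 3 Vehicle and 3 FGF19 mice were used. According to the submitters' processing notes and the methods, the authors trimmed reads with Trimmomatic 0.36 and aligned them with STAR (2.5.3a in the notes), and the deposited values are counts of reads that featureCounts 1.5.2 assigned to the mm9 exons of each gene. Per the file headers, strand was not used, mates were counted as separate reads and multi-mapping reads were dropped. The authors' table of their own comparison, with fold changes and p-values, was not used.

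Counts were filtered with filterByExpr, scaled by TMM (factors between 0.9642 and 1.028) and compared with edgeR 4.0.16's quasi-likelihood test in R 4.3.3, without covariates, at a Benjamini-Hochberg adjusted p of 0.05. The study's methods name edgeR and p under 0.01. The common dispersion was 0.0163. The fit was tested on simulated data. No 2 libraries differed by less than sampling noise, with chi-square statistics per degree of freedom of 8.68 to 41.8 within groups. TPM used the exon lengths in the files, and sequences came from the RefSeq promoter table, which held 7 of the 9 genes. The alternatives were DESeq2 1.42.0, the likelihood ratio test, limma-voom (limma 3.58.1), other scaling and filters, a replicate block and each library left out. Members, gene lists and motifs were chosen with earlier results of these data known. Named genes were all 9 members, in each list the genes called, up to 4 per direction by fold change, a fixed set of receptors, partners and regulators, and the 3 nearest profiles of each called member. The values of 2 named genes are not reported here.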

Additional observations from a re-analysis of the deposited data

How the results depend on the processing

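The calls of Inhbe, Fst and Angptl6 were kept in all 14 alternatives, while that of Fgf21 was kept in 7 of 14. The log2 fold change of Fgf21 was 1.10 with limma-voom and 1.18 without TMM scaling, both with an adjusted p above 0.05, and lay between 0.93 and 1.46 when 1 library was left out. The corresponding ranges with 1 library left out were 0.71 to 1.50 for Gdf15, 0.19 to 0.47 for Angptl4, -0.083 to 0.32 for Lect2, -0.13 to 0.066 for Fgfr1, -0.13 to 0.14 for Met, -0.84 to 0.32 for Inhbb, -0.14 to 0.26 for Acvr2b and -0.027 to 0.13 for Ahsg, of which the last 6 include both signs. The cause was not tested. Over all genes, 573 were called higher and 357 lower, against 642 and 519 with DESeq2, 780 and 579 with the likelihood ratio test and 779 and 626 at an unadjusted p under 0.01. With 1 library left out, the counts lay between 236 and 1015 higher, the lowest without Vehicle replicate 3 and the highest without FGF19 replicate 3, and between 91 and 926 lower, the lowest without FGF19 replicate 2 and the highest without FGF19 replicate 3. Same-numbered libraries had correlations of -0.03, -0.18 and -0.18 in their deviations from the group means, beside -0.13 to 0.23 for differently numbered ones. Deviations from a mean of 3 libraries depend on one another, so these values cannot decide whether the samples were paired. With a replicate block, 370 genes were called higher and 164 lower, and the log2 fold changes were 1.12 for Fgf21, 1.86 for Fst and 1.02 for Gdf15, with 3 hepatokine genes still higher and 1 lower. Genes below about 3 counts per library could not be compared at this depth.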
